A study of Drosophila melanogaster with 33 samples.

Results

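The same adenosines were read in nascent RNA of yw fly heads in 2 kinds of preparation, the libraries of a light:dark time course and small preparations of male heads. A site was taken where the deposited table holds an editing level for both. This applied to 1346 of the 1350 sites listed, in 394 of 395 gene entries. Of these sites 621 were exonic and 725 intronic. The 4 sites without a male level lay in introns of nAcRalpha-30D (2 sites) and cac and in Parp.

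All flies were Drosophila melanogaster, labelled 3 to 4 days old and entrained to 12 h of light and 12 h of dark. The light:dark libraries came from heads of yw (yellow white) flies at ZT2, ZT6, ZT10, ZT14, ZT18 and ZT22, where ZT counts hours from lights on. Each time was sampled in replicate set 1 and set 2, which gives 12 libraries, and the labels give no sex. The yw male group holds 2 libraries, each a small preparation from 40 to 45 heads, and no time of day is given for it. Males of FM7a, an X chromosome balancer strain, and of ADAR0, which lack the editing enzyme, gave 2 libraries each by the same small preparation and are used as reference values. Light:dark libraries were sequenced on the GA II and male libraries on the HiSeq2000, and the labels describe ribosomal RNA depletion for set 1 alone among the light:dark sets. Sex, time of day, size of preparation, sequencer and base-calling version therefore cannot be told apart in the difference between the groups.

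ADAR enzymes convert adenosine to inosine in double-stranded RNA, and inosine is read as guanosine by the ribosome and by reverse transcriptase. In the fly head the known targets are largely transcripts of neurons, such as those of ion channels and synaptic proteins, where a change of the codon can alter the protein. The double-stranded structure is often formed by an exon pairing with a nearby intron, so editing can take place before splicing, on RNA still bound to chromatin. Nascent RNA from head nuclei samples that stage.

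The editing level of a site, the percentage of its reads in which the base is edited, is given here as a whole percent after the deposited rounding. It was pooled over the libraries of a group, so set 1, set 2, all 12 light:dark libraries (the light:dark pool) and yw males each have 1 level per site. The RNA read depth behind a level is unknown, so levels carry no interval, and a level of 0 means that the site is listed at 0. Genomic DNA of yw flies covered the sites with 15 to 112 reads (median 44). The table holds no expression values, so the tissue could not be checked against marker genes. ADAR0 males were listed at 0 at 1178 of 1338 sites (88.0%) and at 50% or more at 8.

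The replicate sets are the main measure of replicate error, beside a deposited 5th percentile over the 12 light:dark libraries. The male replicates are pooled. A set pools 6 libraries and the male level 2, so the spread between the sets may understate the error of a male level. A test of 2 sets against 1 male level cannot give an exact p under 0.33, so no test was run and differences are read against the spread between the sets. A site is called lower or higher where the male level differs from the light:dark pool by 10 percentage points or more and lies outside both sets. The call is a description of size, and 122 called sites differed by 10 or 11 points while 134 sites stood just short of the limit at 8 or 9 points.

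Editing levels were lower in yw males than in light:dark heads at most sites. The median level was 21% in the light:dark pool and 15% in yw males, with a median difference of -5 points per site. Males were lower at 947 sites (70.4%), higher at 353 and equal at 46. They were called lower at 461 sites (34.2%) and called higher at 114 (8.47%). The sets differed less from each other. Set 2 was below set 1 by 10 points or more at 129 sites (9.58%) and above it by as much at 56 (4.16%), with a median difference of -1 point. Differences of 40 points or more from the light:dark pool were found at 24 sites, 21 lower and 3 higher in males, and between the sets at 0 sites.

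The order of the sites by level was largely shared. Across the 1346 sites the light:dark and male levels gave 0.794 for Pearson's r and 0.695 for Spearman's rho, against 0.952 and 0.916 between the sets. These correlations run over sites that share libraries and, when close together, reads, so they describe the data and carry no p. The male level was below both sets at 842 sites (62.6%), above both at 279 (20.7%) and within the sets or equal to one of them at 225 (16.7%). It was below the 5th percentile of the 12 light:dark libraries at 388 sites (28.8%).

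**Figure D1:**
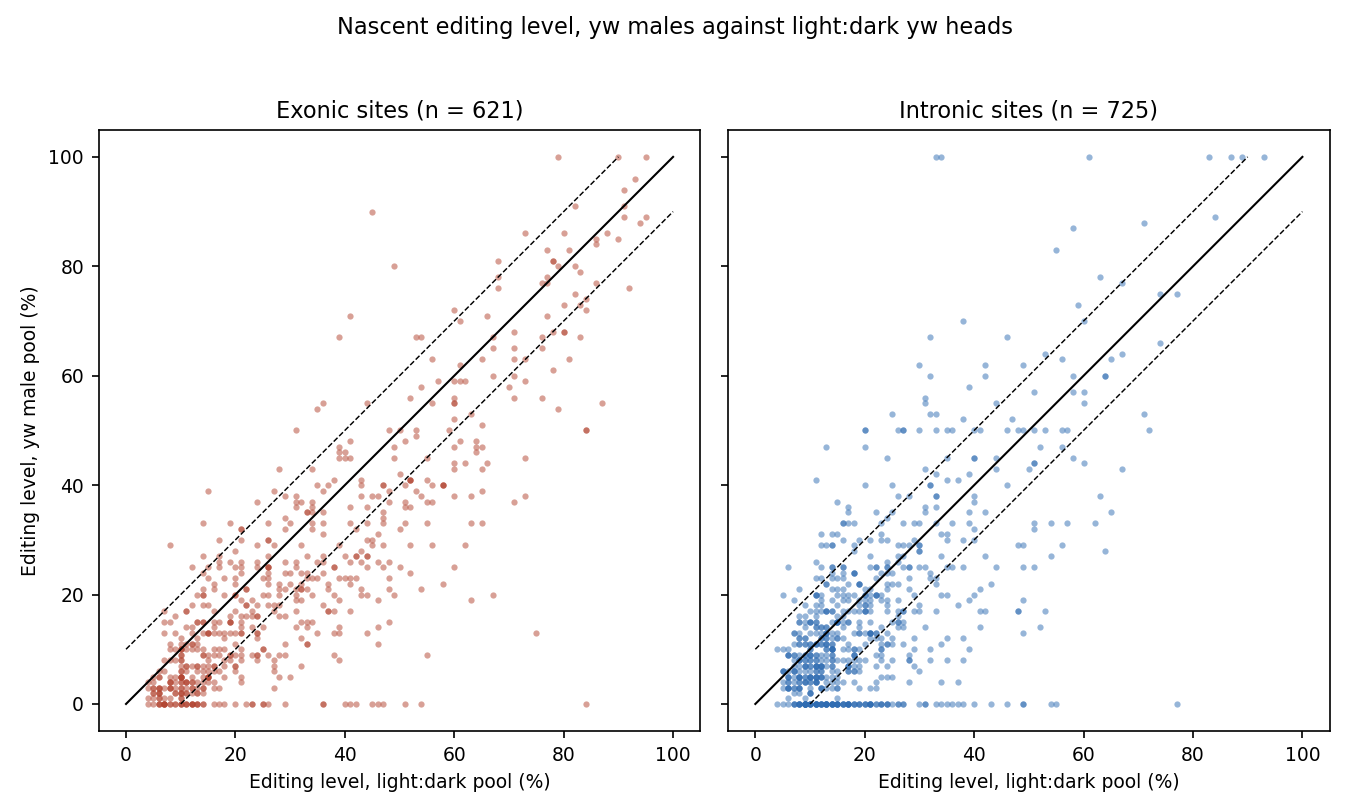
Editing level of each site in the yw male pool (vertical axis, percent) against the light:dark pool (horizontal axis, percent), for 621 exonic and 725 intronic sites. The solid line marks equal levels and the dashed lines a difference of 10 points. Most points lie below the solid line, and the row of points at the bottom holds the 163 sites listed at 0 in males.

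Sites listed at 0 were found in males alone. Of the 1346 sites, 163 were at 0 in yw males and 0 sites were at 0 in the light:dark pool or in either set, and the lowest level of the light:dark pool was 4%. Of the 163 sites 112 were intronic and 51 exonic, and 80 were also at 0 in FM7a males. Their median light:dark level was 15%. Most were therefore low sites, but they reached 84%. The genes with the most sites at 0 were cac with 7, then Sh, mbl, nAcRalpha-30D and nAcRalpha-34E with 6 each and para with 5. At the other end, 10 sites were at 100% in males, with light:dark levels from 33% to 95%. How the listed sites were found is not given in the sources read, and whether their being found in light:dark libraries lowers the male levels was not tested. Without the 163 sites males were lower at 66.3% of sites, but leaving sites out by their male level cannot test how the listing acts.

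The difference was larger in exons than in introns. Exonic sites had a median of 27% in the light:dark pool and 20% in males, with a median difference of -7 points, and 477 of 621 were lower (76.8%). Intronic sites had medians of 18% and 13%, a median difference of -4 points, and 470 of 725 were lower (64.8%). Males were called lower at 249 exonic sites (40.1%) and 212 intronic sites (29.2%). They were called higher at 31 exonic sites (4.99%) and 83 intronic sites (11.4%). Between the sets the median difference was -2 points in exons and -1 point in introns.

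The contrast of the regions was sharper at sites that the table marks as seen in each of the 4 control male libraries, yw and FM7a. That mark depends on detection in males, so these sites cannot show the size of the shift over all sites. At the 374 marked exonic sites the median difference was -6 points, with 138 called lower and 23 called higher. At the 235 marked intronic sites the levels were almost level, with medians of 24% and 23% and a median difference of -1 point. There 119 were lower, 104 higher and 12 equal, and 38 were called lower against 41 called higher. At the sites without the mark, males were lower at 83.4% of 247 exonic and 71.6% of 490 intronic sites.

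Region did not separate sites within genes in 1 direction. Of the 22 genes with at least 3 sites in each region, the median difference of the exonic sites was below that of the intronic sites in 11 and above it in 11. In Syt1, which encodes the calcium sensor of vesicle release, the exonic sites at positions 2785542, 2785610 and 2785621 of chromosome 2L stood at 84%, 42% and 41% in the light:dark pool and at 72%, 27% and 17% in males. Its 6 intronic sites had a median difference of 0.5 points. Most gene entries hold sites of 1 region only, but some genes rich in sites hold both, such as para with 23 exonic and 23 intronic sites. The part of gene in the difference between regions was not tested.

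Levels were then compared along the scale of editing. Sites were binned by their level in set 1 and males were set against set 2, so that the level used for binning is not the one compared. In the bin under 10% the median was 8% in set 2 and 4% in males. From 10 to 19% it was 13% and 9%, and from 20 to 39% it was 25% and 19%. The gap was widest from 40 to 59%, where the medians were 45% and 33%, the median of the site differences was -13 points and males were lower at 76.5% of 196 sites. At 60% and above the medians were 69% and 63%, and the median site difference was -5 points. As a share of set 2, the male level had a median of 50% in the lowest bin, 71.4%, 78.2% and 71.4% in the next ones and 93.6% in the highest. The widest gap was again from 40 to 59% when the sets changed roles, at -15 points.

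Both regions showed the wide gap in the middle of the scale, at -14 points in exons and -8.5 points in introns in that bin. At marked sites, seen in all 4 male libraries, it was -12 points over 96 exonic sites and -1 point over 35 intronic sites. FM7a males, which have other libraries but the same kind of preparation, had medians of 3%, 6%, 15%, 32% and 60% over the bins, at or below the yw male medians in each. Sites at 0 in yw males made up 20.1% of the lowest bin and 3.76% of the highest.

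**Figure D2:**
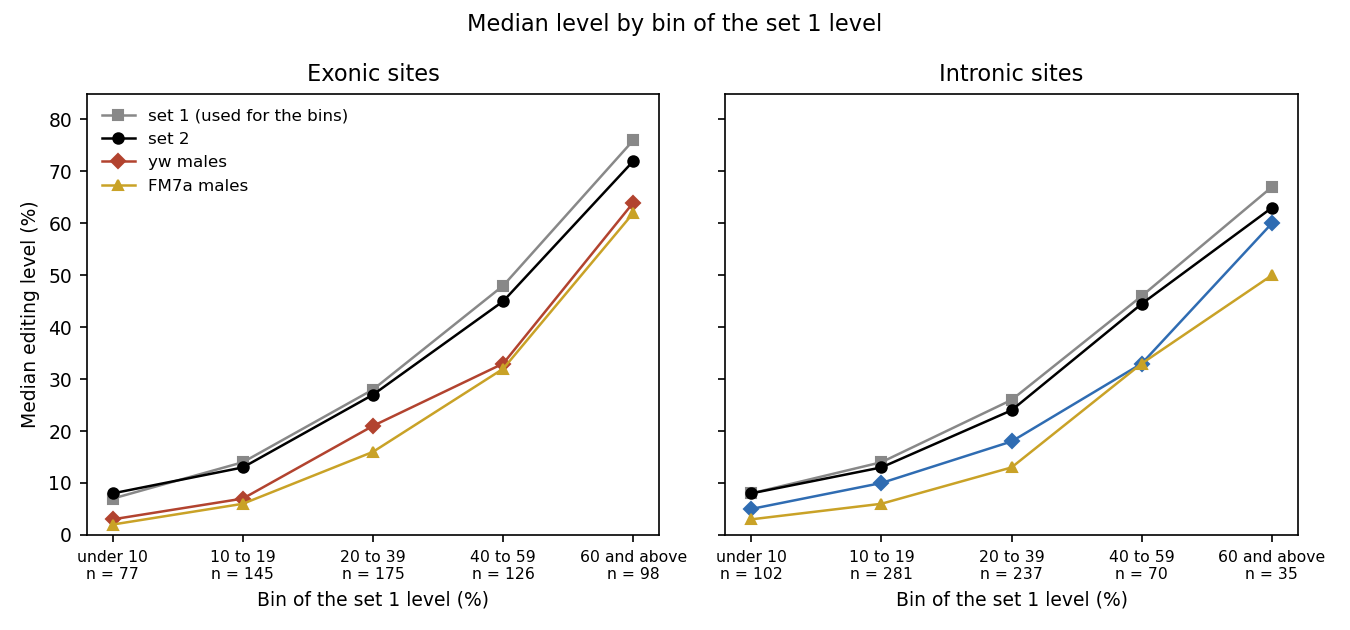
Median editing level (vertical axis, percent) in set 1, set 2, yw males and FM7a males, for sites binned by their set 1 level (horizontal axis), with exonic sites at left and intronic sites at right and the number of sites under each bin. Male medians lie below set 2 in every bin, and in exons the gap is widest in the bin from 40 to 59%.

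Sites already edited almost fully in light:dark nascent RNA were in most cases high in males too, but were called lower about as often as all sites. At the 26 sites of 80% or more in both sets, the median was 87.5% in the light:dark pool, 85% in yw males and 83% in FM7a males. In males 15 of them were at 80% or more and 1 was listed at 0. Males were lower at 18 of the 26 (69.2%). They were called lower at 9 (34.6%) and called higher at 3 (11.5%), against 34.2% and 8.47% of all sites. The 257 sites with an mRNA level, all exonic and in 128 genes, had medians of 48% in light:dark nascent RNA, 36% in yw males and 58% in yw mRNA. Males were below the light:dark pool at 200 of them and below yw mRNA at 222, and 132 were called lower (51.4%) against 13 called higher. The 364 exonic sites without an mRNA level had medians of 16% and 10%, with 117 called lower and 18 called higher.

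The size of the shift differed between chromosomes, which also differed in their share of exonic sites. Sites on the X, of which males carry a single copy, had a median difference of -5 points over 301 sites. Of these 97 were called lower (32.2%) and 31 called higher (10.3%). The arms of chromosomes 2 and 3 gave -6 points over 821 sites, with 307 called lower (37.4%) and 61 called higher (7.43%). Arm 2R stood lowest, with -9 points and 94 of 196 sites called lower (48.0%). Chromosome 4 gave -3 points over 124 sites, with 27 called lower and 16 called higher. The heterochromatic scaffolds gave -2 points over 99 sites. Sites of 1 gene share a chromosome, so a few genes with many sites can set these values.

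Genes with 5 or more sites were used to ask whether the sites of a gene shift together. There were 74 such genes with 854 sites. Their median difference was below 0 in 60, above 0 in 9 and 0 in 5. Every site was lower in males in 15 genes with 107 sites, and every site was higher in 0 genes. Over all sites 70.4% were lower, and how many such genes that share alone would give was not tested. The median was -10 points or lower in 17 genes and 10 points or higher in 0. Against a background of 34.2% of sites called lower, 17 genes had 50% or more of their sites called lower and 0 had as many called higher.

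The gene with the lowest median was nAcRalpha-34E, a subunit of the nicotinic acetylcholine receptor, the channel of fast excitatory transmission in the fly brain. Its 14 sites had a median difference of -24.5 points, with medians of 35% in the light:dark pool and 6% in males. Of these 12 were called lower and 1 called higher, 6 were at 0 in males and 1 was seen in all 4 control male libraries. Its rank rests on the sites at 0. Without such sites its median was -17.5 points, and those of sli, CG33205 and qvr were lower, at -23.5, -21 and -18. In a stretch of 6 exonic sites on chromosome 2L from position 14089204 to 14089249, the light:dark levels were 83%, 25%, 26%, 46%, 84% and 29%. The male levels of the same sites were 67% at the first and 0 at the other 5. The site at position 14089246 was at 85% in set 1, 84% in set 2, 0 in yw males and 100% in yw mRNA. FM7a males had a level at the first of these sites, 100%, and none at the other 5. The pair of adjacent exonic sites at positions 14083516 and 14083517 was at 84% each in the light:dark pool and at 50% each in yw males, and at 50% and 67% in FM7a males.

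The subunit gene nAcRalpha-30D had 15 sites with both levels and a median difference of -13 points. Its sites did not move as a block. Of the 15 sites 9 were called lower, 3 were called higher and 6 were at 0 in males. Without those 6 sites the median was -5 points. The adjacent intronic sites at positions 9800125 and 9800126 of chromosome 2L were at 60% and 84% in set 1, at 48% and 70% in set 2 and at 0 in yw males. Further along, the intronic site at position 9814356 was at 55% in the light:dark pool and 83% in males, and the exonic site at 9807941 was at 54% and 67%. In nAcRalpha-80B 5 sites were lower and 4 higher, with a median difference of -1 point, which was 2 points without sites at 0. The subunit genes nAcRbeta-64B and gfA stood among the genes with the highest medians, at 2 and 4 points over 8 and 5 sites. Against set 1 alone these were -0.5 and 1 point, and without sites at 0 gfA was at 11.5. In GluClalpha, the glutamate-gated chloride channel, all 6 sites were lower, with a median difference of -7.5 points and 2 sites called lower.

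Over the 10 ligand-gated receptor genes with sites, 43 of 65 sites were lower and 22 higher, with a median difference of -8 points. Males were called lower at 29 sites (44.6%) and called higher at 13 (20%), against 34.2% and 8.47% of all sites. The genes nAcRalpha-34E and nAcRalpha-30D held 21 of the 29 sites called lower. The other 8 receptor genes had 8 of 36 sites called lower (22.2%) and 9 called higher (25%).

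After nAcRalpha-34E the lowest medians were those of sli, CG33205 and qvr. The gene sli encodes the axon guidance ligand Slit, and its table entry, CG33464, has 7 exonic sites on chromosome 2R from position 11759236 to 11759871. Their light:dark levels were 14%, 65%, 41%, 12%, 30%, 14% and 65%. Their male levels were 5%, 33%, 0%, 0%, 5%, 0% and 43%. All 7 were lower in males, 6 were called lower and the median difference was -22 points. FM7a males were at 7%, 22%, 5%, 0%, 4%, 5% and 35%, so both male strains lay below the light:dark pool at every sli site. Over all genes FM7a males lay below it at 1097 of 1336 sites.

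The gene qvr, also called sleepless, encodes a membrane-anchored protein that modulates the Shaker potassium channel. All 7 of its exonic sites were lower, 6 were called lower and the median difference was -19 points. Within 23 bases on chromosome 2R, from position 7335106 to 7335128, the levels of 4 sites were 56%, 78%, 51% and 65% in the light:dark pool and 37%, 61%, 0% and 39% in males. The third of these, at position 7335122, was at 52% and 50% in the sets, at 15% in FM7a males and at 71% in yw mRNA. At the last pair of qvr sites, positions 7337822 and 7337823, yw males were at 26% and 35% and below both sets, whereas FM7a males were at 50% and 58%.

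In pyd, the fly homologue of the junction protein ZO-1, all 9 exonic sites were lower and 8 were called lower. Light:dark levels ran from 12% to 49% and male levels from 0 to 28%. The exonic site at position 4663332 of chromosome 3R was at 47% and 45% in the sets and at 11% in yw males. FM7a males were at 0 at 6 of the sites and between 9% and 19% at the other 3. The median difference was -15 points.

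CG33205, between sli and qvr in order, had a median of -21 points over 5 exonic sites, from 38%, 52%, 73%, 28% and 11% in the light:dark pool to 17%, 24%, 38%, 21% and 10% in males. The gene mbl, which encodes the splicing factor muscleblind, had a median of -16.5 points over 12 sites. Of these 9 were lower and 6 were at 0, 4 of them intronic, while 2 exonic sites were slightly higher. Without the sites at 0 the mbl median was -4 points. CG16974 had -14 points with 5 of 5 sites lower, and Rlip, which encodes a Ral-interacting protein, had -13 points with 4 of 5 lower. Both rest on the set used, since against set 2 alone the medians were -8 points in CG16974 and -6 in Rlip, and against set 1 alone -19 and -18.

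**Figure D3:**
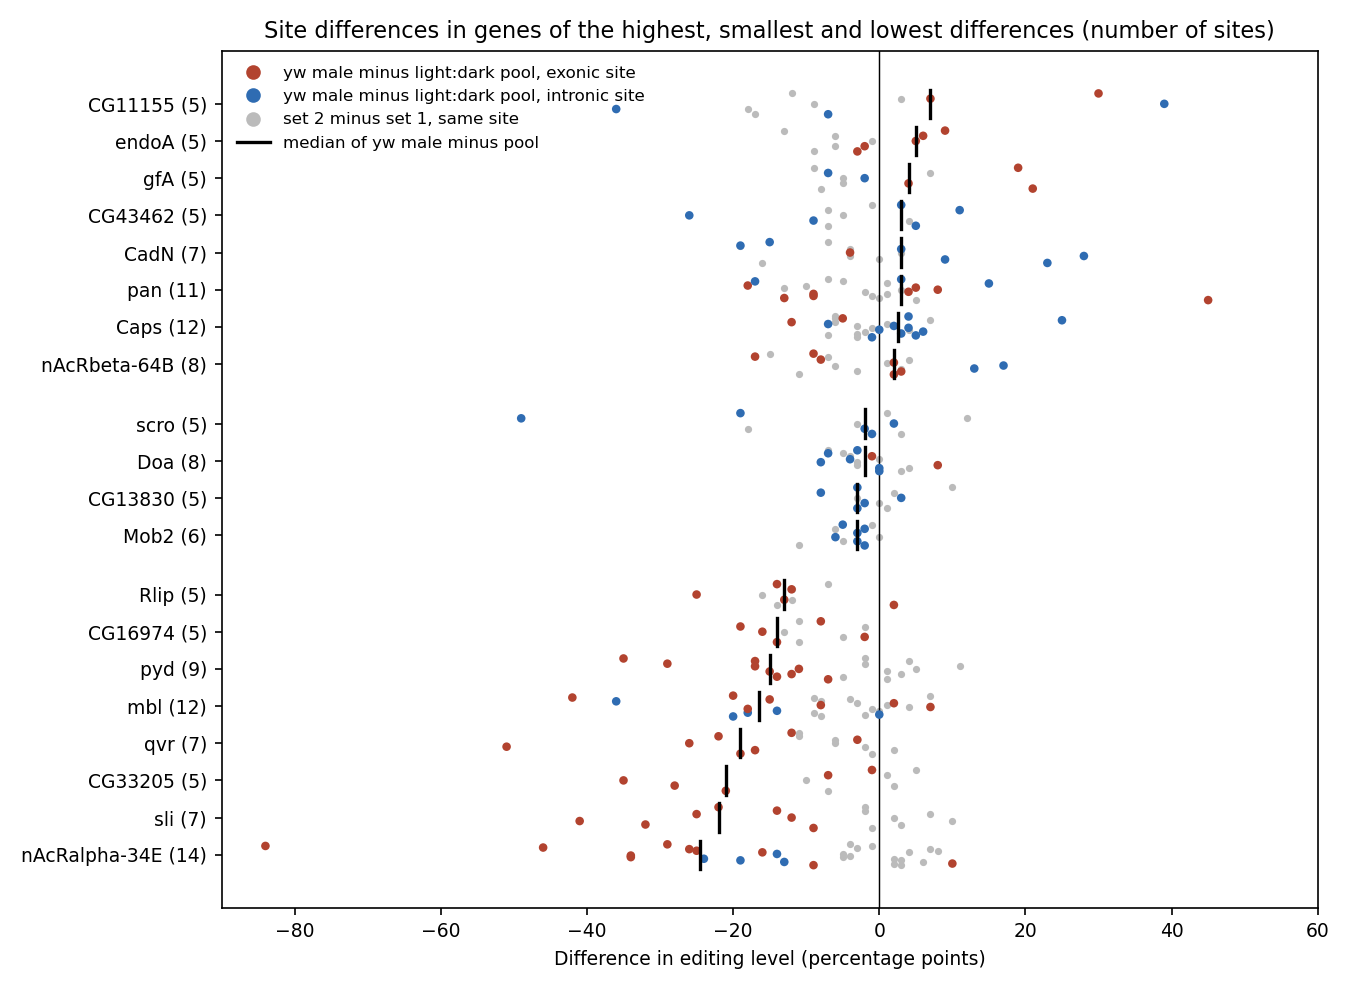
Difference in editing level (horizontal axis, percentage points) at each site of 20 genes, the 8 with the highest and the 8 with the lowest median and the 4 with the smallest median absolute difference, with the number of sites in brackets. Coloured points give yw male minus light:dark pool, grey points give set 2 minus set 1 at the same sites, and black bars mark the median of the coloured points. In the lowest genes the coloured points lie left of most grey points, and in the highest genes they spread to both sides of 0.

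Other genes with every site lower had smaller differences. In Syn, which encodes the vesicle protein synapsin, all 10 sites were lower with a median of -8.5 points and 4 called lower. The adjacent exonic sites of Syn at positions 6021705 and 6021706 of chromosome 3R were at 28% and 55% in the light:dark pool and at 16% and 45% in males, and the site at 6021148 was at 95% and 89%. All 11 exonic sites of CG18437 were lower. Its current symbol is unc80, a partner of the sodium leak channel, and its median was -6 points with levels of 80% and 68% at position 23500458 of chromosome 3R. The spectraplakin gene shot and the nesprin gene Msp-300 each had 10 of 10 sites lower, with medians of -8.5 and -5.5 points. CG42492, whose current symbol is OtopLa, had 6 of 6 lower with -12.5 points and 5 called lower.

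The remaining genes with every site lower were ssx, which encodes an RNA-binding protein, the eye development gene toy, the translation factor gene NAT1 and Mob2. The kinase adaptor gene Mob2 was lower at 6 of 6 intronic sites by small amounts, from 2 to 6 points, and had 0 sites called. Below the limit of 5 sites, the cation channel gene trpm was called lower at 4 of 4 exonic sites, with a median of -23.5 points, and the receptor gene DopEcR was lower at 4 of 4, with -20 points. These 2 were named after their values were seen.

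No gene with 5 or more sites had a median of 10 points or more, and in those with the highest medians sites went both ways. Among the 320 entries with fewer sites the median was 10 points or higher in 26 and -10 or lower in 117. Of these, 3 and 36 had at least 2 sites. One of the 3 was Nmdar1, an NMDA-type glutamate receptor gene, with 2 of 2 sites called higher and a median of 16.5 points, named after its values were seen. CG11155 on chromosome 4 had the highest, at 7 points over 5 sites. Its intronic site at position 1154280 was at 65% and 56% in the sets and 100% in yw males. Its intronic site at 1153572 was at 58% and 40% in the sets and 13% in males. In endoA, which encodes the membrane-bending protein endophilin, 3 sites were higher and 2 lower, with 0 called and a median of 5 points. Its male levels were 48%, 47%, 29%, 22% and 70% against 51%, 49%, 24%, 16% and 61% in the light:dark pool.

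The other genes of high median were CG43462, the adhesion gene CadN and the transcription factor gene pan, at 3 points each, and Caps, a factor of dense-core vesicle release, at 2.5 points. In pan the exonic site at position 120661 of chromosome 4 was at 43% and 48% in the sets, 90% in yw males and 30% in FM7a males. Against set 1 alone the medians were 1 point in CG43462, CadN and Caps and -2 in pan, and that of endoA was 3.

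The smallest median absolute differences were in scro, a homeobox gene, CG13830, Mob2 and Doa, a kinase gene that acts on splicing factors, with medians between -3 and -2 points. The other 3 genes had 0 sites called, but in scro 2 of 5 intronic sites were called lower, with differences of -49 and -19 points. The scro levels in the light:dark pool were 51%, 16%, 48%, 49% and 29%, and in males 50%, 14%, 50%, 0 and 10%. Against set 1 alone the scro median was -13 points, that of Mob2 -6 and that of Doa -3.5.

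Among the 16 voltage-gated channel genes with sites, 169 of 241 sites were lower and 64 higher, with a median difference of -5 points. Males were called lower at 75 (31.1%) and called higher at 15 (6.22%), near the shares of all sites. Sh, the Shaker potassium channel, had 39 of 58 sites lower, with a median of -3.5 points and 6 sites at 0. The sodium channel gene para had 33 of 46 lower, with -7 points and 13 called lower. NaCP60E, related to the sodium channels, had 19 of 21 lower with -7 points and 8 called lower.

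The calcium channel gene cac, the presynaptic channel that triggers release, had 18 of 25 sites lower with a median of -6 points, 11 called lower and 7 at 0, and -2.5 points without those 7. Its light:dark median was 36% and its male median 17%. The 3 intronic cac sites between positions 11849557 and 11849594 of the X were all at 0 in males. The middle one, at position 11849558, was at 53% and 45% in the sets and 25% in FM7a males. No other run of 3 or more sites with gaps of at most 100 bases was at 0 at every site in males.

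Shab and Ca-alpha1D showed large differences at some sites of an exon beside small ones at others. In Shab, a delayed rectifier potassium channel, 6 exonic sites between positions 2941311 and 2941426 of chromosome 3L were at 9%, 84%, 87%, 63%, 55% and 92% in the light:dark pool. In yw males they were at 2%, 74%, 55%, 38%, 9% and 76%. In FM7a males they were at 5%, 65%, 54%, 31%, 11% and 77%. The last 2 sites are adjacent bases. The first of them was at 53% and 58% in the sets and 9% in yw males, and its neighbour at 91% and 93% in the sets and 76% in yw males. At the other 13 sites of Shab, 7 were lower and 6 higher.

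In Ca-alpha1D, a calcium channel of muscle and neurons, the exonic sites at positions 16174152 and 16174153 of chromosome 2L were at 67% and 75% in the light:dark pool, at 20% and 13% in yw males and at 15% and 0 in FM7a males. The nearest exonic sites on either side were closer to their light:dark levels, and a farther one, at 16174116, was at 33% in the light:dark pool and 11% in males. At position 16174138 the level was 88% in the light:dark pool and 86% in males, and at 16174194 it was 95% and 100%. In yw mRNA these 4 sites stood between 92% and 100%. The adjacent pair is not among the sites seen in all 4 male libraries.

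**Figure D4:**
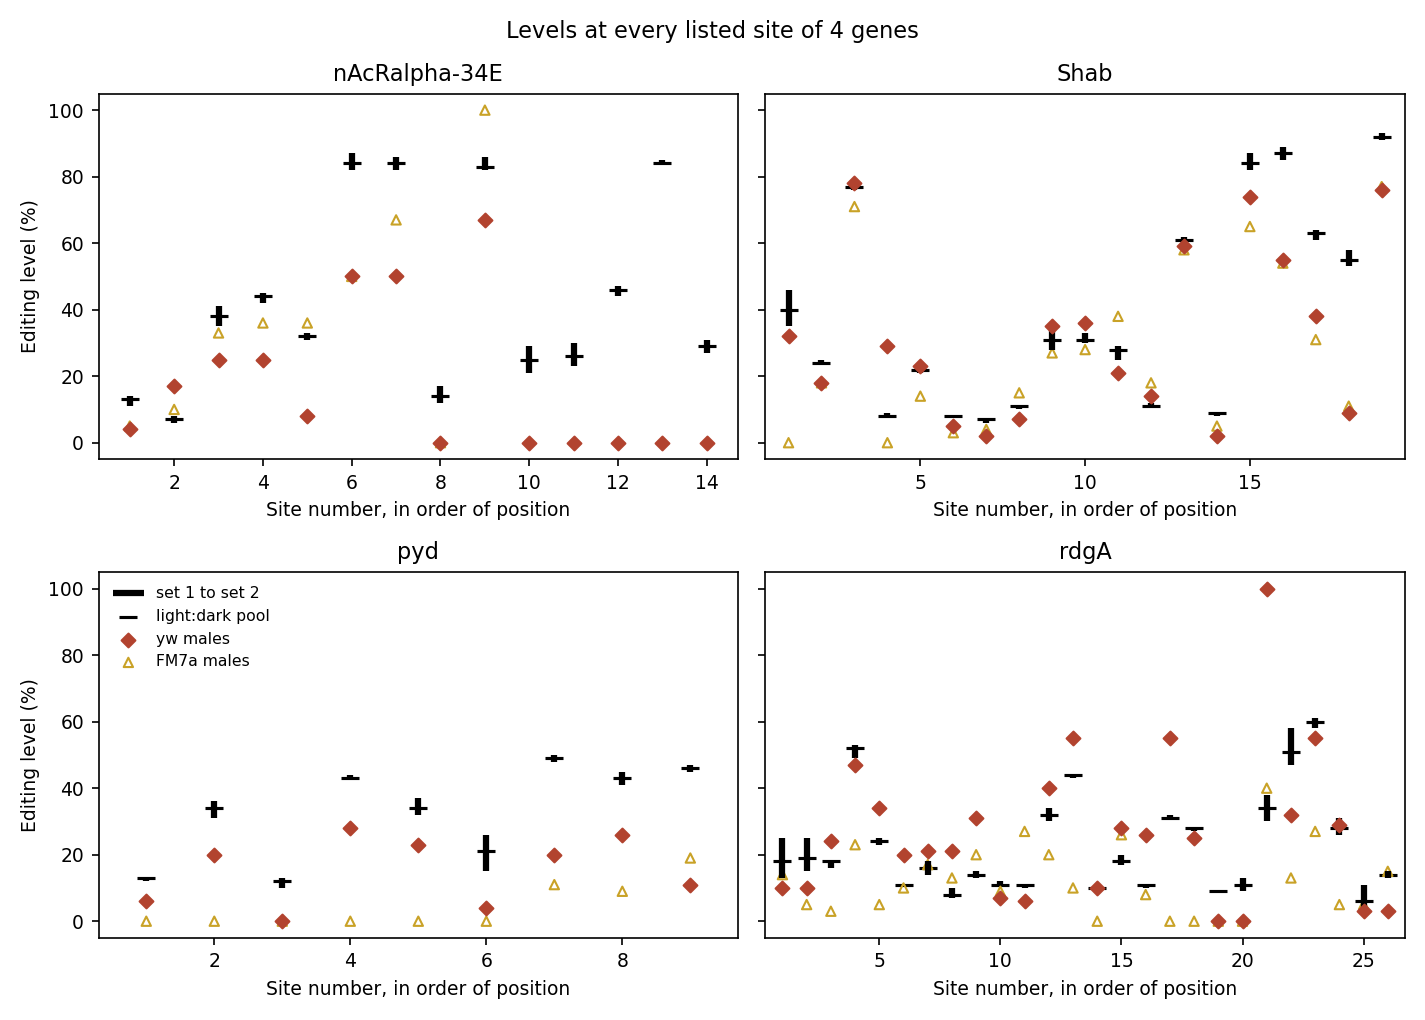
Editing level (vertical axis, percent) at every listed site of nAcRalpha-34E, Shab, pyd and rdgA, with sites numbered in order of position (horizontal axis). Black bars span set 1 to set 2, black dashes give the light:dark pool, red diamonds yw males and open triangles FM7a males, where listed. All 9 pyd diamonds lie below the bars, the last 6 Shab diamonds lie below them, and the rdgA diamonds lie on both sides.

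The 15 vesicle release genes had 72 of 106 sites lower and 29 higher, with a median difference of -4.5 points, 28 called lower (26.4%) and 3 called higher (2.83%). In unc-13, a vesicle priming factor, 19 of 24 sites were lower with a median of -6.5 points and 8 called lower. In Snap25, a membrane fusion protein, 7 of 11 intronic sites were lower with a median of -2 points. Its site at position 24068086 of chromosome 3L was at 93% in the light:dark pool and 100% in males, and the site at 24068233 was at 51% and 25%.

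In phototransduction genes and in pump genes more sites were called higher than called lower. Over 6 phototransduction genes 18 of 35 sites were lower and 16 higher, with 5 called lower (14.3%) and 8 called higher (22.9%). The gene rdgA, a diacylglycerol kinase of photoreceptors, held 26 of the 35 sites and all 8 of those called higher, so the list's count is that of 1 gene. In rdgA 12 intronic sites were lower and 13 higher, 3 were called lower, and the median of the site differences was 0.5 points. It was -1.5 points against set 1 alone and 1.5 against set 2 alone. The median level of the rdgA sites was 18% in the light:dark pool, 24.5% in yw males and 10% in FM7a males. The site at position 8914417 of the X was at 30% and 38% in the sets and at 100% in yw males, while neighbours at 8914398 and 8914411 were at 0 in males. The site at position 8860450 was at 32% and 31% in the sets, 55% in yw males and 0 in FM7a males. The phospholipase C gene norpA had 1 of 3 sites above the light:dark pool, and both exonic sites of the lipid transfer gene rdgB were lower, at 13% and 11% against 2% and 4%.

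Over 6 ATPase and ion pump genes 23 of 37 sites were lower and 12 higher, with 5 called lower (13.5%) and 6 called higher (16.2%). The plasma membrane calcium pump gene PMCA held 5 of the 6 sites called higher. On chromosome 4 its sites at positions 377337 and 377349 were at 59% and 32% in the light:dark pool and at 73% and 53% in males. Further sites at 378299, 378347 and 378348 were at 13%, 38% and 26% and in males at 29%, 70% and 50%. Over all 19 PMCA sites 9 were lower and 9 higher, and the median was 0, or 4 points against set 1 alone. Of the exchanger genes, Calx had 3 of 5 exonic sites called lower and a median of -10 points, and Nckx30C gave -1.5 points over 6 sites.

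Adhesion and guidance genes had 42 of 54 sites lower, with a median difference of -8 points and 25 called lower (46.3%) against 3 called higher (5.56%). They include the 7 sli sites given above. In nrm, a cell adhesion gene, 15 of 20 sites were lower with a median of -7 points. In tutl, an immunoglobulin superfamily gene, the 4 exonic sites at positions 4308806, 4314575, 4314576 and 4314586 of chromosome 2L were at 29%, 73%, 71% and 40% in the light:dark pool and at 21%, 59%, 56% and 23% in males.

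The listed muscle genes had 11 of 12 sites lower and 7 called lower (58.3%), with a median of -10 points over 5 genes. Of these sites 8 belong to Rya-r44F, the ryanodine receptor of calcium release, which is also used outside muscle. Its exonic sites at positions 4771211 and 4771250 of chromosome 2R were at 93% and 46% in the light:dark pool and at 96% and 14% in males. The sites of Mhc and Zasp52 were at 29% and 25% in the light:dark pool and at 20% and 0 in males. The list leaves out Msp-300 and Unc-89, which also act in muscle, so its share depends on the genes listed. Msp-300 had 2 of 10 sites called lower, and the 1 site of Unc-89 was at 77% in both groups.

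The listed kinase and second messenger genes had 32 of 45 sites lower and 12 higher, with a median of -5 points, 11 called lower (24.4%) and 4 called higher (8.89%). The list leaves out the kinase genes Doa and rdgA given above, so its share depends on the genes listed. Doa had 0 of 8 sites called, and rdgA had 3 of 26 called lower and 8 called higher. CaMKII, a calcium-dependent kinase, had 20 of 29 sites lower with a median of -4 points and 4 called lower. The phosphodiesterase gene Pde1c had 7 of 8 lower with -10.5 points. Pka-R2, a regulatory subunit of protein kinase A, had 3 intronic sites at 32%, 24% and 24% in the light:dark pool and at 60%, 0 and 13% in males.

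**Figure D5:**
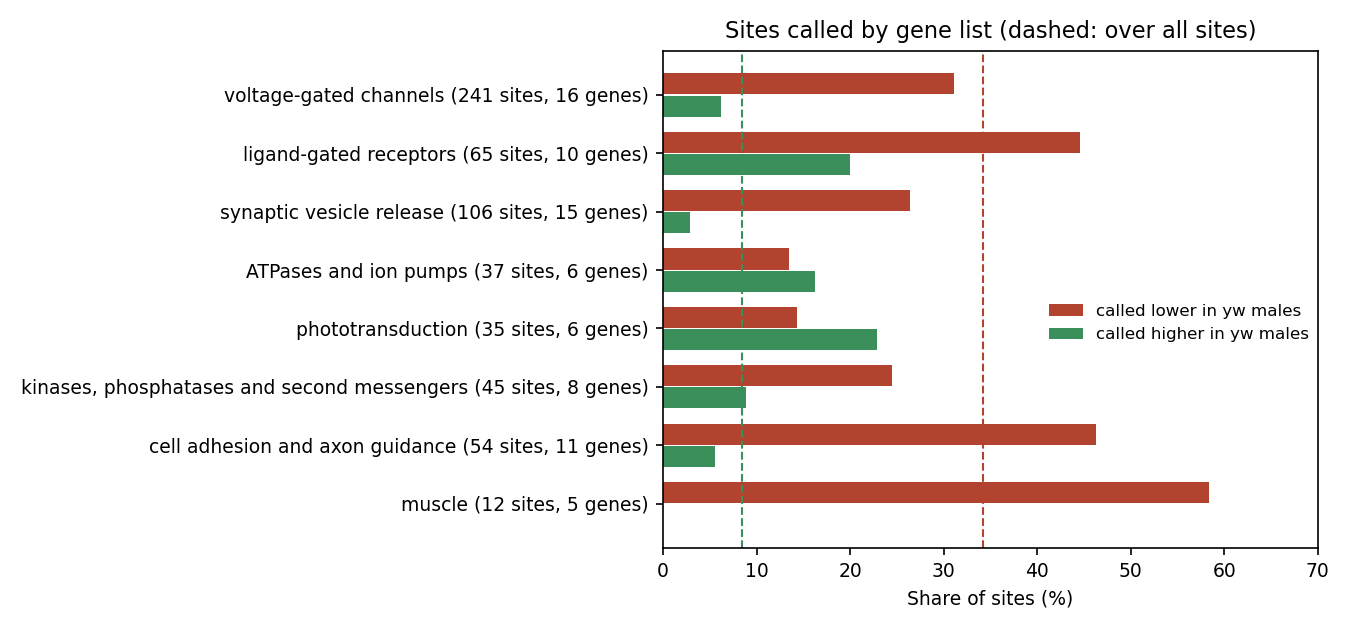
Share of sites (horizontal axis, percent) called lower and called higher in yw males for each list with 5 or more genes holding sites, with dashed lines at 34.2% and 8.47% for all sites. The share called lower ranges from 13.5% for ATPases and ion pumps to 58.3% for muscle genes. The muscle bar rests on 12 sites and leaves out Msp-300 and Unc-89.

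Genes tied to how the groups were made were looked at next. The table holds 2 sites of the clock gene tim, at 30% and 15% in the light:dark pool and at 24% and 13% in males. The sex determination gene fru, spliced differently in males and females, has 7 sites under its own entry, CG14307. Of these 5 were lower and called lower, 1 was higher and 1 equal, with a median of -12 points. A joint entry with an overlapping gene, CG14307/CG33541, holds 2 more sites, 1 called lower at -17 points and 1 higher by 2 points. The highest fru site, intronic at position 14323743 of chromosome 3R, was at 65% in the light:dark pool and 35% in males. Adar itself, whose transcript is edited by its own product, has 1 exonic site at 24% in the light:dark pool and 26% in males.

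The other genes rich in sites were CG17684, with 31 sites and a median of 0, CG42540, with 23 sites and a median of -2 points, and CG40263, with 20 sites and a median of -1 point. CG17684 had 15 sites lower and 14 higher, with 6 called lower (19.4%) and 4 called higher (12.9%). CG42540 had 13 lower and 9 higher, with 4 called in each direction (17.4%). CG40263 had 10 lower and 7 higher, with 6 called lower (30%) and 0 called higher. Of all sites 34.2% were called lower and 8.47% called higher.

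The lowest single sites beyond those above lay in an intron of toc and an exon of Frq1. The site of toc at position 3110898 of chromosome 2L was at 60% and 52% in the sets and at 0 in yw and FM7a males. That of Frq1, a neuronal calcium sensor, at position 18064159 of the X was at 61% and 46% in the sets, listed at 0 in yw males, and at 25% in FM7a males and 77% in yw mRNA. Among the highest, sano at position 14766310 of chromosome 2R was at 32% and 34% in the sets, 100% in yw males and 0 in FM7a males. The serotonin receptor gene 5-HT7 at position 26834695 of chromosome 3R was at 28% and 38% in the sets and at 67% in yw males.

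The last 2 sites of highest difference were in CG40178 and CG15630. CG40178, on the heterochromatic scaffold 3LHet at position 1313463, was at 10% and 16% in the sets, 47% in yw males and 28% in FM7a males. CG15630, at position 4775610 of chromosome 2L, was at 31% and 28% in the sets, 62% in yw males and 33% in FM7a males. These sites were picked for their yw male level, and FM7a males were below yw males at each of the highest 8 that has an FM7a level.

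Close neighbours tended to differ in the same direction, both in males against the light:dark pool and between the sets. Of successive sites of a gene up to 100 bases apart, with a median gap of 10 bases, 294 of the 404 pairs without a difference of 0 had the same direction (72.8%), against 63.6% and 60.9% in the distance classes beyond 100 and beyond 1000 bases. The differences had a Pearson's r of 0.45 over 429 pairs. Such sites can lie on the same reads, and the differences between the sets also had an r of 0.34 and the same direction in 66.8% over close pairs. Beyond 100 and up to 1000 bases r was 0.13 over 217 pairs, and beyond 1000 bases it was -0.01 over 306 pairs. After a site called lower, the next was called lower in 58.5%, 44.3% and 33.3% of pairs in the 3 distance classes, the last near the 34.2% of all sites. Pairs share libraries and genes, so these values carry no p.

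Runs of 3 or more sites with gaps of at most 100 bases numbered 96, with 374 sites. Every site was lower in 40 runs and higher in 3. All sites were called lower in 12 runs with 44 sites, and all were called higher in 0. The 12 runs lay in cac, trpm, sli, nAcRalpha-34E, qvr, DopEcR, stops, CG42492, tutl, unc-13, pyd and shi, which encodes dynamin. The 3 higher runs lay in Caps, CG17684 and PMCA.

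FM7a males give a second male group with other libraries. Their levels had a median of 11% and a median difference from the light:dark pool of -8 points, with 1097 sites lower and 205 higher. Both male groups share the light:dark pool as reference, so each was set against a different set. Of 481 sites where yw males were 10 points or more below set 1, FM7a males were below set 2 at 422 (87.7%), and over all 1336 sites at 79.2%. Of 108 sites where yw males were 10 points or more above set 1, FM7a males were above set 2 at 38 (35.2%), against 17.8% of all sites, and below it at 66. With the sets exchanged, FM7a males were below set 1 at 370 of 424 such lower sites (87.3%), against 83.01% of all sites, and above it at 35 of 122 higher ones (28.7%), against 13.8%. The differences had an r of 0.28 over the 1336 sites, and 0.26 with the sets exchanged.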

How the data were processed

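Editing levels are deposited fractions, which the authors pooled over the libraries of a group and rounded to hundredths, per the file headers and values. Here they were multiplied by 100. Genomic coverage is a deposited read count. Per the submitters' processing notes the build was dm3 and the tools were TopHat and CASAVA 1.6, or CASAVA 1.8 for male libraries. How sites were called is not given in the sources read, nor whether positions count from 0 or 1. RNA depth is unknown.

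Differences are the yw male level minus the light:dark pool, in percentage points. They were computed with Python 3.11.15, pandas 2.3.3 and numpy 2.4.6. No test between groups was run, because the male replicates are pooled. Genes were named by a rule: of genes with at least 5 sites, the 8 lowest and 8 highest medians, the 4 with the smallest median absolute difference, the 10 with most sites, and the 3 with most sites of each list (all sites for clock, sex and Adar), plus the 8 lowest and 8 highest single sites. Members and lists were chosen with earlier results of these data known. Symbols for entries without one came from the RefSeq table of the Release 6 assembly, used for names only, which matched 380 of the 395 entries listed. Alternatives left out a set, groups of sites or the largest genes, or changed the call limit.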

Additional observations from a re-analysis of the deposited data

How the results depend on the processing

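Male levels were lower in the median under each alternative run, and over the main counts and medians no direction reversed. Without set 1 the median difference was -5 points, the share lower 66.4%, and 423 sites were called lower and 116 higher, and without set 2 these were -6 points, 72.1%, 474 and 103. The exonic medians were -6 and -8 points in that order, and the intronic median was -4 points both times. At sites seen in all 4 control male libraries the median was -3 points, the share lower 64.04%, the called sites 176 lower and 64 higher, and the intronic median -1 point. At sites of 20% or more in both sets the median was -9 points, with -10 in exons, -7 in introns and 63 sites called higher. Without sites at 0 in males the share lower was 66.3% and the intronic median -2 points. A limit of 5 points called 710 sites lower and 215 higher, and a limit of 20 points called 162 and 35, since fewer sites pass a larger limit. The 15 values that moved are these, and the other 86 alternative values kept their size, which for medians allowed a move of the spread between the sets or 1 point, whichever is larger, for shares that spread, and for counts 1.5 times. The log2 ratio was compared by its sign.

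Among the 48 named genes, the sign of the median changed in Nckx30C without set 1, in pan, nAcRbeta-64B, rdgA and Adar without set 2, and in nAcRalpha-80B and Pka-R2 without sites at 0. The Pka-R2 median became 8.5 points over its 2 remaining sites. The median moved by over 1.5 times in 11 of the named genes without set 1, in 20 without set 2 and in 11 without sites at 0. The cause was not tested. Leaving out sites with an mRNA level, sites at 0 in FM7a males, or chromosome 4 with the heterochromatic scaffolds were alternatives chosen after seeing the data. No paired analysis was possible because yw male replicates were pooled into 1 level. Read depth, which is unknown, limits every single-site value, most of all those at 0 or 100%.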
